A study of Saccharomyces cerevisiae with 14 samples.

Results

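The outermost genes of the budding yeast chromosome arms were examined on expression arrays of strains that lack the amino-terminal tail of histone H3 or of histone H4. The set holds nuclear open reading frames (ORFs) that are measured by a probe set for that gene alone and are among the 10 outermost such ORFs of their arm. ORFs were ordered by systematic name, whose number counts outward from the centromere, and rank 1 is the outermost. Of 320 ORFs so chosen, 18 were left out because they belong to the PAU, DAN, TIR or COS families or are FDH1 or POT1. This left 302 genes of 5478 nuclear ORFs with such a probe set, on all 32 arms of 16 chromosomes. Of these 144 have rank 1 to 5 and 158 have rank 6 to 10. An arm is written below by its chromosome letter, from A to P, and L or R for left or right. The order of the names was the order of RefSeq's annotation for 275 of 288 neighbouring pairs. ORFs that lack a probe set of that kind are skipped, so a rank can lie further in than it reads. RPD3, at rank 2 of arm NL, is the 8th annotated ORF from that end, and HPF1, at rank 7 of arm OL, is the 14th.

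The arrays compare 4 groups of congenic strains that carried the histone gene in question on a plasmid. In H3del (4 arrays) histone H3 lacks residues 1 to 28, and H3WT (4 arrays) is the matching wild type. Both carried H3 on a plasmid marked with LEU2 and reached mid-log growth in complete synthetic medium without leucine and uracil. In H4del (3 arrays) histone H4 lacks residues 2 to 26, and H4WT (3 arrays) is its wild type. Both carried H4 on a plasmid marked with TRP1 and grew in the same medium without tryptophan and uracil. The H3 and the H4 strains thus differ in plasmid, marker and medium as well as in the histone. The labels leave unsaid if each array had a culture of its own. A p-value here therefore reflects array-to-array spread, part of which could be technical.

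Genes near yeast telomeres can be held silent. Rap1 bound to the telomere repeats recruits the Sir proteins, which spread inward by binding the tails of H3 and H4 on nucleosomes with deacetylated histones. Further in, the histone deacetylase Hda1 and the corepressor Tup1 repress other stretches of subtelomeric chromatin. These regions are rich in gene families for cell adhesion, sugar and metal uptake and the use of unusual nutrients, many of which are little expressed in rich glucose medium.

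Ranks between 2 arrays of the same group correlated at a Spearman rho of 0.968 to 0.992, and those of different groups at 0.935 to 0.980. Several measures moved with the groups. The summed signal of 8 mitochondrial genome genes was 24.7 to 58.0 on the H4del arrays and 2470 to 14231 on the H4WT arrays, a pair of ranges that do not overlap. The summed signal of 4 alpha-specific mating genes was 2628 to 3102 in H4del and 32498 to 37224 in H4WT, and 17066 to 21311 in H3del against 28577 to 35578 in H3WT. The summed signal of 7 a-specific genes was 979 to 1475 in H3del against 582 to 864 in H3WT, and 1088 to 1271 in H4del against 909 to 1042 in H4WT. The mean log2 signal of 10 ribosomal RNA control probe sets was 10.54 to 11.51 in H4del and 7.83 to 9.46 in H4WT, and 8.73 to 10.14 in H3del and 7.38 to 9.21 in H3WT. The ratio of 3′ to 5′ actin control signal, a measure of RNA integrity, was 1.54 to 2.89 in H3del and 1.56 to 2.15 in H3WT, with H3del replicates 1, 2 and 4 above every other array. The part of these measures in the results below was not tested. The arrays were scaled to a shared mean signal before deposit.

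The outermost genes were often dim. A probe set was tested when its mean log2 signal over all 14 arrays lay above the 30th percentile of all probe sets, 7.16. Of the 302 genes 237 passed, which is 75% of rank 1 to 5, 81.6% of rank 6 to 10, 92.8% of rank 11 to 20 and 92.6% of the ORFs further in. The 65 genes that did not pass include the flocculin genes FLO1 and FLO5, the arsenite resistance genes ARR2 and ARR3 and RIF2, a telomere-length regulator. Of the 237 tested genes 18 had at least 1 group mean at or under the filter value, so some entered the test through the group in which they were brighter. For that reason counts are given both over the 237 and, in a fit without the filter, over all 302. Arrays measured the RNA of whole cultures, so a change in few cells and a smaller change in every cell cannot be told apart.

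H3del was first set against H3WT, to see which of these genes respond to loss of the H3 tail. In H3del 38 of the 237 tested genes rose and 6 fell, at a limma adjusted p under 0.05. The largest increases were those of DAK2, YAR068W, HPF1, YNR071C and YMR317W, with log2 changes of 1.83 to 2.59, and the largest decrease was that of SST2, at -1.53. The genes that rose are 16.03% of the 237 against 4.19% of the 5015 tested nuclear ORFs, counted without the families left out above, and those that fell 2.53% against 2.63%. The share that rose was 22.2% of rank 1 to 5 (24 of 108), 10.9% of rank 6 to 10 (14 of 129), 6.06% of rank 11 to 20 (18 of 297) and 3.44% of the ORFs beyond rank 20 (154 of 4481). The median log2 change was 0.23 at rank 1 to 5 and 0.04 at rank 6 to 10, beside -0.01 over all tested ORFs. Over all 302 genes in the fit without the filter 44 rose and 6 fell, which is 14.6% and 1.99% beside 5.04% and 2.38% of 5460 ORFs. On single arrays, the median of rank 1 to 5 against the mean of the wild type was 0.21, 0.23, 0.02 and 0.28 in H3del, and replicate 3 lay among the H3WT arrays, which spanned -0.04 to 0.11. Within the days on which arrays were hybridized, the median of rank 1 to 5 was 0.31 on day 1, 0.10 on day 4 and 0.20 on day 5, and that of rank 6 to 10 was 0.03, -0.03 and 0.01. With the replicate number as a block 50 genes rose and 15 fell, beside 8.24% and 7.48% of all tested ORFs.

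**Figure D1:**
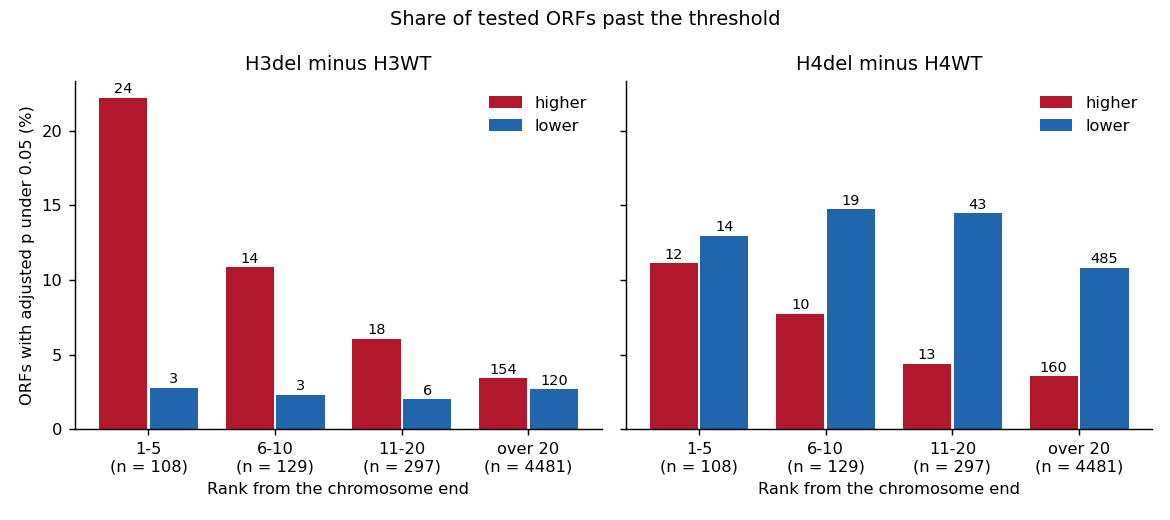
Share of tested ORFs, in percent, past an adjusted p of 0.05 by rank from the chromosome end, for H3del minus H3WT on the left and H4del minus H4WT on the right, with the number of ORFs printed on each bar. Higher calls in H3del make up 22.2% at rank 1 to 5 and 3.44% beyond rank 20, while lower calls in H4del outnumber higher calls in every band.

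Genes for proteins of the cell surface were among those that rose most. HPF1 (arm OL, rank 7) encodes a mannoprotein of the cell wall. On the arrays in order of replicate number it gave a signal of 17988, 17875, 13373 and 14869.7 in H3del and 4524, 3854, 4675 and 3006 in H3WT. Every H3del array was above every H3WT array, with a log2 fold change of 2.00 ± 0.16 (SE) and an adjusted p of 1.33e-06. FLO10 (arm KR, rank 4), a flocculin, gave 462, 457, 512 and 526 in H3del and 193, 162, 134 and 238 in H3WT, again without overlap (1.37 ± 0.21, adjusted p = 0.000493). FLO10 has 7 probe sets, and the other ones were all under the brightness filter, with log2 changes of -0.06 to 0.75. Of 12 members in a list of flocculin and cell wall genes 7 were tested, and 4 rose and none fell, with a median of 0.80. The other ones that rose were YPS6 (0.80 ± 0.22), a cell-surface aspartyl protease, and YAL065C (0.88 ± 0.24), which resembles the flocculin genes and whose groups overlapped. Beside this list and those below, 4.19% of all tested ORFs rose and 2.63% fell in H3del.

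Both tested members of the list for glycerol and carbon metabolism rose, with a median of 1.86. DAK2 (arm FL, rank 6), a dihydroxyacetone kinase, had the largest log2 change of any tested member in H3del. Its signal was 876, 848, 1318 and 1564 in H3del and 152, 130, 246 and 173 in H3WT. Every H3del array stood far above every H3WT array, and the log2 fold change was 2.59 ± 0.29 (adjusted p = 2.8e-05). PCK1 (arm KR, rank 9), the phosphoenolpyruvate carboxykinase of gluconeogenesis, gave 487, 509, 756 and 515 against 201, 296, 267 and 232, a log2 fold change of 1.12 ± 0.18 without overlap of the groups.

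Iron genes gave changes in both directions. Of 16 members in a list of metal uptake genes 12 were tested, of which 4 rose and 1 fell in H3del, with a median of 0.43. FIT1 (arm DR, rank 7) and FIT3 (arm OR, rank 6) encode cell wall mannoproteins that retain iron carriers. FIT1 gave 299, 301, 269.6 and 353 in H3del and 107, 111, 112 and 123 in H3WT (1.30 ± 0.18), with narrow groups far apart. FIT3 rose by 1.39 ± 0.25 and FRE2, a ferric reductase, by 1.23 ± 0.25 on the log2 scale. SIT1, a siderophore transporter, rose by 1.04 ± 0.26, though H3WT replicate 1 was above H3del replicate 3. FET4 (arm MR, rank 2), a low-affinity iron transporter, went the other way, with 947, 977, 836 and 1049.9 in H3del and 2029, 1422, 1628 and 1783 in H3WT (-0.83 ± 0.18).

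Genes for several metabolic enzymes also rose. GDH3 (arm AL, rank 8), a glutamate dehydrogenase, gave 2091, 2266, 1359 and 2164 in H3del and 697, 700, 654 and 721 in H3WT (1.46 ± 0.18, adjusted p = 7.67e-05). The wild-type arrays were nearly level, and all H3del arrays lay above them, with replicate 3 the lowest. AAD10 (arm JR, rank 1) and AAD4 (arm DL, rank 3), members of a family of putative aryl-alcohol dehydrogenases, had log2 changes of 1.45 ± 0.24 and 1.02 ± 0.19. The AAD4 probe set can also hybridize to related sequences. In the list that holds them 2 of 9 tested members rose and none fell, with a median of 0.38. YNR071C (arm NR, rank 4), a predicted aldose epimerase, gave 426, 380.3, 394 and 394 in H3del and 97.5, 94.2, 74.3 and 94.5 in H3WT. Both groups were tight and the log2 change was 1.96 ± 0.19 (adjusted p = 8.37e-06). YAR068W (rank 1) gave 473, 653, 413 and 472 against 113, 24.9, 91.3 and 91.6, a log2 change of 2.52 ± 0.35 from a probe set that can hybridize to related sequences. YMR317W (arm MR, rank 4) rose by 1.83 ± 0.23 and YIR043C (arm IR, rank 1) by 1.53 ± 0.28.

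Of the other lists, sugar genes had 1 higher member of 8 tested, MAL33 (0.80 ± 0.18), an activator of maltose genes, with a median of 0.32. Phosphate genes had 1 of 2, the sodium phosphate transporter PHO89 (0.89 ± 0.20), whereas PHO84, the main phosphate transporter, had -0.90 ± 0.30 and did not pass the test. The list named drug and small molecule export had 1 of 2, AMF1 (0.99 ± 0.26). None passed in either direction among 12 amino acid and nitrogen genes, 4 flavour and ester genes, 2 meiosis genes and 1 vitamin gene, whose median log2 changes were -0.29, 0.23, 0.34 and 0.43. At an unadjusted p under 0.05 in limma 1 amino acid or nitrogen gene was higher and 3 were lower, the vitamin gene BIO2 was higher, and no flavour or meiosis gene passed.

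The 6 genes that fell in H3del were SST2, RMD6, IRC7, FET4, SRY1 and FAU1. SST2 (arm LR, rank 9), which dampens pheromone signalling, gave 116, 164, 206 and 248 in H3del and 652, 368, 467 and 771 in H3WT (-1.53 ± 0.34), with both groups spread out but not overlapping. IRC7 (arm FR, rank 2), a cysteine desulfhydrase, had -1.03 ± 0.24 and SRY1 (arm KL, rank 6), a hydroxyaspartate dehydratase, -0.76 ± 0.21.

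Of the 38 genes that rose 29 stayed past the threshold without each of the 8 arrays in turn. The other 9 were YAL065C, YDL241W, HPA3, SIT1, AVT2, YHR210C, YPS6, YJL213W and AMF1, whose highest adjusted p with 1 array left out lay between 0.0637 and 0.145. Of the 6 that fell RMD6, FAU1 and SRY1 lost their call, with a highest adjusted p of 0.0637 to 0.130. Groups did not overlap on the arrays, upward, for 44 of the 237 genes (18.6%, beside 6.86% of all tested ORFs) and, downward, for 18 (7.59%, beside 7.72%). Of the 38 genes 5 had a probe set that can hybridize to related sequences.

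**Figure D2:**
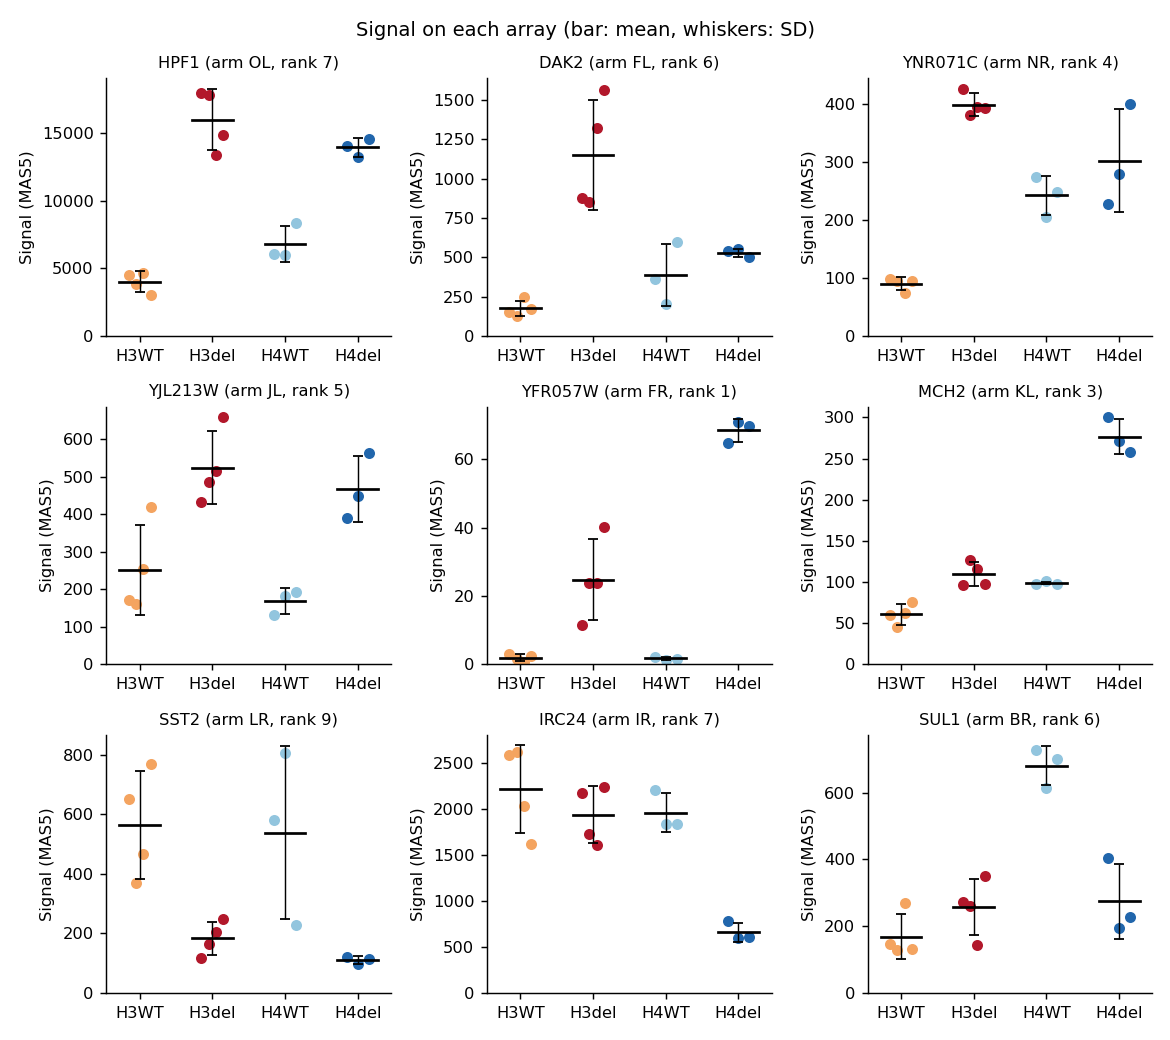
Signal on every array for 9 of the outermost genes, with 1 point per array, a bar at the group mean and whiskers of 1 SD (n = 4 for H3WT and H3del, n = 3 for H4WT and H4del), each panel on its own linear axis from 0. The group means of HPF1, DAK2 and YNR071C are highest in H3del and those of YFR057W and MCH2 in H4del, and IRC24 is low on the 3 H4del arrays.

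The higher values in H3del were found more among dimmer members. Of 49 genes of rank 1 to 5 between the 30th and 50th percentile of mean signal 15 rose (30.6%) and the median log2 change was 0.55. Beyond rank 10, ORFs of that brightness rose in 8.13% of cases and had a median of 0.09. Of 59 genes of rank 1 to 5 above the 50th percentile 9 rose (15.3%), beside 2.21% beyond rank 10, and both medians were below 0, at -0.04 and -0.03. At rank 6 to 10 the dimmer 36 had 7 that rose and a median of 0.40, and the brighter 93 had 7 and a median of -0.03. So the share that rose was above that of inner ORFs at both levels of brightness, and the shift of the median was found in the dimmer genes.

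H4del was compared with H4WT to ask the same of the H4 tail. In H4del 22 of the 237 tested genes rose and 33 fell. The largest increases were those of YJL213W and YKR104W, with log2 changes of 1.38 and 1.31, and among the decreases that held without each array YJL218W, SST2 and SEO1 were the largest, at -1.96, -1.96 and -1.65. The genes that rose are 9.28% of the 237 against 3.89% of all tested ORFs, and those that fell 13.9% against 11.2%. By rank, 12 of 108 rose and 14 fell at rank 1 to 5, and 10 of 129 rose and 19 fell at rank 6 to 10. The median of all tested ORFs was -0.16 under the deposited scaling, which gave every array the same mean. The typical ORF thus sat lower in H4del, and changes of ORFs are best read against that value. Over all tested probe sets, with and without a gene, 7.79% rose and 9.67% fell. The median was -0.02 at rank 1 to 5 and -0.12 at rank 6 to 10. With each array centred on its median 31 genes rose and 23 fell (13.1% and 9.70%, beside 6.60% and 6.72% of all tested ORFs), and the median of rank 1 to 5 was 0.14. Over all 302 genes without the filter 26 rose and 32 fell, 8.61% and 10.6% beside 4.45% and 10% of 5460 ORFs. With the replicate number as a block 38 rose and 50 fell, beside 7.76% and 21.95% of all tested ORFs.

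These counts rested on few arrays. The number that rose was 12 without H4WT replicate 1, 10 without H4WT replicate 2, 12 without H4del replicate 1 and 12 without H4del replicate 2. The number that fell was 18 without H4WT replicate 1, 18 without H4WT replicate 2 and 19 without H4del replicate 2. Without each of the 6 arrays in turn 7 of the 22 higher and 12 of the 33 lower genes stayed past the threshold. The 7 were HPF1, JEN1, URA1, MIX23, YJL213W, YKR104W and YLL066W-B, and the 12 were SEO1, VBA2, AIM6, PHO13, GTT1, HYR1, IRC24, NRE1, YJL218W, SST2, FET4 and ENB1. For the others the highest adjusted p with 1 array left out lay between 0.0558 and 0.188 for genes that rose and between 0.0545 and 0.191 for genes that fell. Groups did not overlap, upward, for 37 genes (15.6%, beside 8.91%) and, downward, for 50 (21.1%, beside 22.1%). Within day 2 the median of rank 1 to 5 was -0.08, beside -0.21 beyond rank 20, and within day 4 it was -0.12, beside -0.09.

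The genes that rose in H4del include a permease and several enzymes. JEN1 (arm KL, rank 7), the lactate and pyruvate permease, gave 463, 404 and 840.5 in H4del and 283, 227 and 225 in H4WT (1.10 ± 0.25, adjusted p = 0.00954). DLD3 (arm EL, rank 3), a D-lactate dehydrogenase, gave 5792, 4686 and 5602 against 1630.5, 2811 and 3504, without overlap (1.08 ± 0.27, with an adjusted p of 0.0707 without H4WT replicate 1). URA1 (arm KL, rank 8), the dihydroorotate dehydrogenase of pyrimidine synthesis, is a bright gene and gave 19484, 23269 and 17885 in H4del against 10635, 10531 and 11226 in H4WT, a log2 change of 0.90 ± 0.12 with an adjusted p of 0.000219. MIX23 (arm BL, rank 1), a protein of the mitochondrial intermembrane space, rose by 1.19 ± 0.29, YJL213W (arm JL, rank 5) by 1.38 ± 0.30 and YKR104W (arm KR, rank 2) by 1.31 ± 0.27.

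Decreases in H4del included permeases and redox enzymes. IRC24 (arm IR, rank 7), a short-chain reductase, gave 781, 596 and 605 in H4del and 2206, 1837 and 1843 in H4WT (-1.55 ± 0.22, adjusted p = 0.000361). All 3 H4del arrays lay far below the 3 H4WT arrays. Its neighbours on arm IR fell with it: GTT1 (rank 5), a glutathione transferase, by -1.13 ± 0.23, HYR1 (rank 6), a thiol peroxidase, by -0.58 ± 0.14 and NRE1 (rank 8), a second reductase, by -0.92 ± 0.22. VBA2 (arm BR, rank 7), a vacuolar transporter of basic amino acids, gave 264, 334 and 254 against 619.5, 662 and 868 (-1.28 ± 0.18, adjusted p = 0.000372). SEO1 (arm AL, rank 1), a putative permease, gave 163, 203 and 224 against 675, 780.1 and 521, without overlap (-1.65 ± 0.26). YJL218W (arm JL, rank 1), a putative acetyltransferase, gave 199, 285 and 170 against 786, 1461 and 590.5 (-1.96 ± 0.35), where the wild-type arrays spread widely but stayed above every H4del array.

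Over all tested ORFs 3.89% rose and 11.2% fell in H4del. By list, 2 of 12 tested metal genes fell in H4del and none rose. They were ENB1, a siderophore transporter (-1.63 ± 0.32), and FET4 (-0.95 ± 0.21), and the median was -0.01. Of 12 amino acid and nitrogen genes 3 fell and none rose, with a median of -0.53: SEO1, the sulfate permease SUL1 (-1.32 ± 0.33) and the S-methylmethionine permease MMP1 (-0.95 ± 0.24). The call of SUL1 was lost without H4del replicate 2, at an adjusted p of 0.067, and that of MMP1 without 4 of the 6 arrays. Of 9 genes in the list of oxidoreductases DLD3 rose and GTT1 and ADH4 fell. For ADH4, an alcohol dehydrogenase, the probe sets disagreed: the one tested gave -1.47 ± 0.48 and a second, under the filter, gave 1.46 ± 0.38. In the cell wall list 1 of 7 rose, HPF1, in the sugar list 1 of 8, MAL33, and in the flavour and ester list 1 of 4, IMD2, an IMP dehydrogenase (0.48 ± 0.13).

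The largest decrease in H4del was also the least even. YOR387C (arm OR, rank 2) gave 1436, 668 and 339 in H4del and 5038, 7682 and 8541 in H4WT, a log2 change of -3.29 ± 0.93. The groups did not overlap, yet the call was lost when H4WT replicate 1, H4WT replicate 2, H4del replicate 2 or H4del replicate 3 was left out, and in H3del the same gene ranged from 377 to 10560.1. ZPS1 (arm OL, rank 9), a gene induced by zinc shortage, gave 14140.5, 9979 and 1888 against 18009.8, 21783 and 26664 (-1.76 ± 0.49), with H4del replicate 3 far below the others. Its adjusted p was 0.0653 without H4WT replicate 2. Genes of mitochondrial proteins went both ways. Those that fell include ATP15, an ATP synthase subunit (-0.54 ± 0.15), MDL2, an inner-membrane transporter (-0.92 ± 0.27), and CTP1, the citrate carrier (-0.89 ± 0.21). MIX23, given above, rose by 1.19. These genes were not drawn from a list, so no share of them can be set beside the 11.2% of all tested ORFs that fell. The mitochondrial genome genes were low on the same 3 arrays, as given above, and the part of that in these changes was not tested.

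Of the 65 genes under the brightness filter 6 rose in H3del and 6 in H4del in the fit without the filter, and none fell in either. At the adjusted p under 0.05 of that fit this is 9.23% of the 65 in each, beside 5.04% and 4.45% of 5460 ORFs. Those 5460 are of every brightness, so the shares are not matched. Beyond rank 20, 357 ORFs lay at or under the filter. Of the ORFs beyond rank 20, 207 of 4838 rose in H3del without the filter and 154 of 4481 with it. In H4del these were 201 and 160. No excess of the 65 over other dim ORFs is thus shown. At an unadjusted limma p under 0.05 the counts among the 65 were 11 higher and 1 lower in H3del and 13 higher and 1 lower in H4del. YFR057W (arm FR, rank 1), long used to read out silencing at a native telomere, gave 64.8, 71.1 and 69.7 in H4del, 2.3, 1.3 and 1.7 in H4WT, 11.5, 23.7, 23.8 and 40.3 in H3del and 3.2, 1.5, 0.7 and 2.5 in H3WT. Both wild types were near 0 on every array, every deletion array was above them, and all H4del arrays were above all H3del arrays. On the log2 scale with its offset of 16.9 the changes were 1.10 ± 0.19 in H3del and 2.19 ± 0.22 in H4del, values that understate the ratio of such low signals. MCH2 (arm KL, rank 3), which resembles monocarboxylate permeases, gave 299.9, 272 and 258 in H4del, 98, 101 and 97.8 in H4WT, 96.9, 127, 116 and 97.7 in H3del and 60.2, 45.1, 62.7 and 76.1 in H3WT. It too passed in both, at 0.71 ± 0.18 and 1.34 ± 0.20, though the H3del arrays lay at about the level of H4WT.

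In H3del alone the fit without the filter passed for STL1 (1.58 ± 0.19), a glycerol symporter, AQY1 (1.68 ± 0.37), an aquaporin, HPA2 (1.06 ± 0.26), an acetyltransferase, and PDR18 (0.98 ± 0.24), a drug exporter. STL1 gave 122, 126, 133 and 134 in H3del and 36.3, 26.6, 26.8 and 39.6 in H3WT, both tight groups. AQY1 was more spread, with 226, 201, 158 and 87.3 against 44.1, 33.7, 60.1 and 21.8. Each of the 6 genes that passed in H3del had an exact permutation p of 0.0286, two-sided, which is the smallest that 4 arrays against 4 allow. The 6 were picked by the fit on the same arrays, so this p adds no support to their calls. HMRA1 (arm CR, rank 10), the a1 gene of the silent mating cassette at HMR, gave 862, 935 and 476 in H4del and 39, 6.1 and 52.8 in H4WT (4.06 ± 0.38). In H3del it gave 25, 20.7, 29.7 and 46.4, close to the 26.7, 7.6, 18.1 and 16.3 of H3WT, so the high values were those of H4del. Its other probe sets gave smaller changes in H4del, 1.13 ± 0.31 and 1.96 ± 0.20. YCL074W (arm CL, rank 2), on the left arm of the same chromosome, gave 452, 352 and 256 against 47.9, 23.1 and 40.4 (2.77 ± 0.29). The probe sets of HMRA1 and YCL074W can both hybridize to related sequences. YPS5, a yapsin-type protease gene, and YKL222C passed in H4del at 1.06 ± 0.26 and 1.03 ± 0.27. With 3 arrays against 3 the smallest exact p is 0.1, and HMRA1, YCL074W, YFR057W, MCH2 and YPS5 each had that value. They too were picked by the fit on the same arrays, so it adds no support.

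The comparisons of the tail deletions share no arrays, but both come from the same fit, with a shared estimate of the spread. Both also hold arrays of hybridization day 4. Their calls are set side by side here and are not independent. Of the 38 tested genes that rose in H3del and the 22 that rose in H4del 11 were the same, which is 28.9% of the first and 50% of the second. That is 4.64% of the 237 genes, beside 1.16% of all tested ORFs. Over all tested ORFs 58 rose in both, of 210 that rose in H3del and 195 that rose in H4del. The 28.9% is thus near the share over all ORFs. The 11 genes are HPF1, YJL213W, YKR104W, YIR043C, JEN1, AMF1, YMR317W, YLL066W-B, MAL33, PCK1 and YNR077C. YJL213W (arm JL, rank 5) gave 432, 486, 516 and 659 in H3del, 170.5, 162, 254 and 419 in H3WT, 391, 448 and 562 in H4del and 131, 183 and 194 in H4WT. Neither deletion overlapped its wild type, and the log2 changes were 1.09 ± 0.26 and 1.38 ± 0.30, but the H3del call was lost when H3WT replicate 1, H3WT replicate 2 or H3del replicate 4 was left out. YKR104W gave 295, 331, 228 and 409 against 106, 168, 99.6 and 193 in the H3 strains and 401, 326 and 307 against 136, 128 and 120.1 in the H4 strains. HPF1 stood at 14107, 13226 and 14596 in H4del and 6098, 6034 and 8366 in H4WT, a log2 change of 1.05 ± 0.19.

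Genes that fell in both were SST2, IRC7 and FET4, which is 50% of the 6 that fell in H3del and 9.09% of the 33 that fell in H4del. They are 1.27% of the 237 genes, beside 0.877% of all tested ORFs. Over all tested ORFs 44 fell in both, of 132 that fell in H3del and 561 that fell in H4del. SST2 gave 121, 96.1 and 115 in H4del and 582, 805 and 228 in H4WT (-1.96 ± 0.39), without overlap in either pair of groups. SST2 acts in the mating pheromone pathway, and the alpha-specific genes were low on the same arrays, as given above; the part of cell identity in its change was not tested. FET4 gave 739, 1317 and 936 against 1874, 1759.5 and 2049. No gene rose in one deletion and fell in the other at the limma adjusted p, and 3 did so at an unadjusted p under 0.05 in each. Of the 38 that rose in H3del 28 had a positive change in H4del, and of the 22 that rose in H4del 18 had one in H3del. The same was not counted over all tested ORFs, so no likeness particular to the outermost genes is shown.

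**Figure D3:**
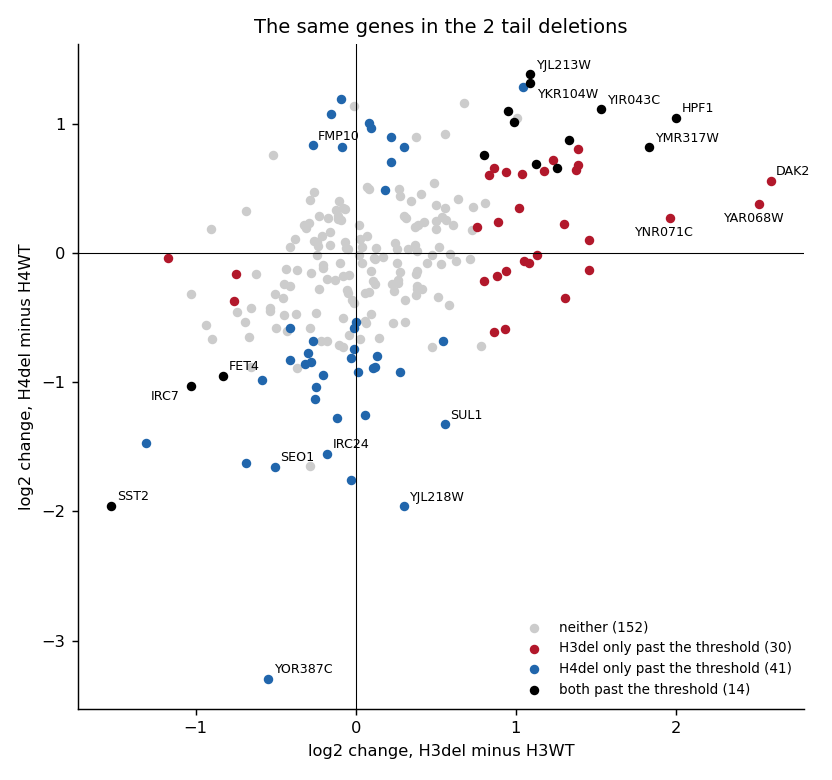
Log2 change of the 237 tested outermost genes in H3del minus H3WT (x axis) and H4del minus H4WT (y axis), with 1 point per gene coloured by the comparison in which its adjusted p is under 0.05. The 14 black points, called in both, lie in the upper right (11) and lower left (3), while DAK2, YAR068W and YNR071C lie far right, at 0.56, 0.38 and 0.27 on the y axis.

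Whether the tail effects differ was tested directly, as the change in H3del minus the change in H4del. The difference was above 0 for 17 genes and below 0 for 2, at an adjusted p under 0.05. That is 7.17% and 0.844% of the 237, beside 2.59% and 0.798% of all tested ORFs. The median difference was 0.24 over the 237 genes and 0.18 over all tested ORFs, so most of it is found over all tested ORFs. With each array centred on its median 16 genes were above 0 and 5 below, beside 2.41% and 2.25%. Without the filter 16 of 302 were above 0 and 4 below, 5.30% and 1.32% beside 2.29% and 0.641% of 5460 ORFs. The count above 0 ran from 6 to 27 as single arrays were left out, and was 6 without H3del replicate 2 or H4del replicate 2 and 27 without H4WT replicate 3. It was 8 without H3del replicate 1, H3del replicate 4, H4WT replicate 1 or H4del replicate 1, 9 without H4WT replicate 2 and 11 without H3WT replicate 1. The count below 0 ran from 0 to 3. With the replicate number as a block 40 genes were above 0 and 10 below, beside 11.4% and 4.07% of all tested ORFs.

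DAK2 had a change of 2.59 in H3del and 0.56 in H4del, a difference of 2.04 ± 0.44. In the H4 strains its signal was 538, 549.7 and 501 in H4del and 362, 203 and 597 in H4WT, groups that overlapped. YNR071C differed by 1.69 ± 0.29, with 227, 279 and 399 in H4del against 274, 206 and 248 in H4WT. AAD10 and GDH3 differed by 1.58 ± 0.36 and 1.35 ± 0.28, with changes near 0 in H4del (-0.13 and 0.10). For YJL218W (2.26 ± 0.46), IRC24 (1.37 ± 0.29) and VBA2 (1.16 ± 0.24) the difference came with a decrease in H4del and no call in H3del. SUL1 had 0.56 in H3del and -1.32 in H4del, a difference of 1.88 ± 0.44. The genes below 0 were URA1 (-0.67 ± 0.16) and FMP10 (-1.10 ± 0.26), both called higher in H4del only. HPF1, called in both deletions, also differed, by 0.96 ± 0.25.

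The wild types were compared because each deletion is read against its own. In H3WT minus H4WT 4 genes were higher and 18 lower, 1.69% and 7.59% of the 237, beside 1.3% and 1.54% of all tested ORFs. At rank 1 to 5 there were 2 higher and 11 lower of 108, and at rank 6 to 10 2 higher and 7 lower of 129. Without the filter the counts over 302 genes were also 4 and 18, 1.32% and 5.96% beside 1.01% and 1.61% of 5460 ORFs. The number lower was 11 without H3WT replicate 2 and 10 without H4WT replicate 1, and the number higher was 2 without H3WT replicate 1 or 2. With the replicate number as a block 15 were higher, beside 4.25% of all tested ORFs. The histone gene on the plasmid, the marker, the medium and all but 1 hybridization day differ between these groups and cannot be told apart.

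The largest differences between the wild types were those of SUL1 and JLP1. SUL1 gave 148, 129, 268 and 130.2 in H3WT and 728, 615 and 701 in H4WT (-1.97 ± 0.31, adjusted p = 0.00172), and JLP1, which releases sulfite from sulfonates, gave 121, 113, 119.8 and 86.5 and 380.4, 357 and 513 (-1.77 ± 0.23). Neither pair of groups overlapped, and for SUL1 the H4del arrays overlapped those of H3WT. Higher in H3WT were IMD2 (0.70 ± 0.12), PRE4, a proteasome subunit (0.71 ± 0.16), YEL068C (0.89 ± 0.22) and KGD4, a subunit of ketoglutarate dehydrogenase (0.95 ± 0.19). The H3WT arrays are the controls of H3del, so both comparisons use them and only values side by side are given. AAD10 changed by -1.57 between the wild types and by 1.45 in H3del, YNR071C by -1.27 and 1.96, GDH3 by -1.23 and 1.46, and HPF1 by -0.77 and 2.00. In signal, GDH3 stood at 1359 to 2266 in H3del, 654 to 721 in H3WT, 1458 to 1849 in H4WT and 1476 to 1979 in H4del, so H3WT was the group that stood apart. HPF1 was different, with both wild types, at 3006 to 8366, below both deletions, at 13226 to 17989. DAK2 (-0.99, adjusted p = 0.105) and FIT1 (-0.58, adjusted p = 0.135) did not pass between the wild types. SEO1, at -1.01 ± 0.24, had -0.61 with the hybridization day as a block and an adjusted p of 0.351.

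**Figure D4:**
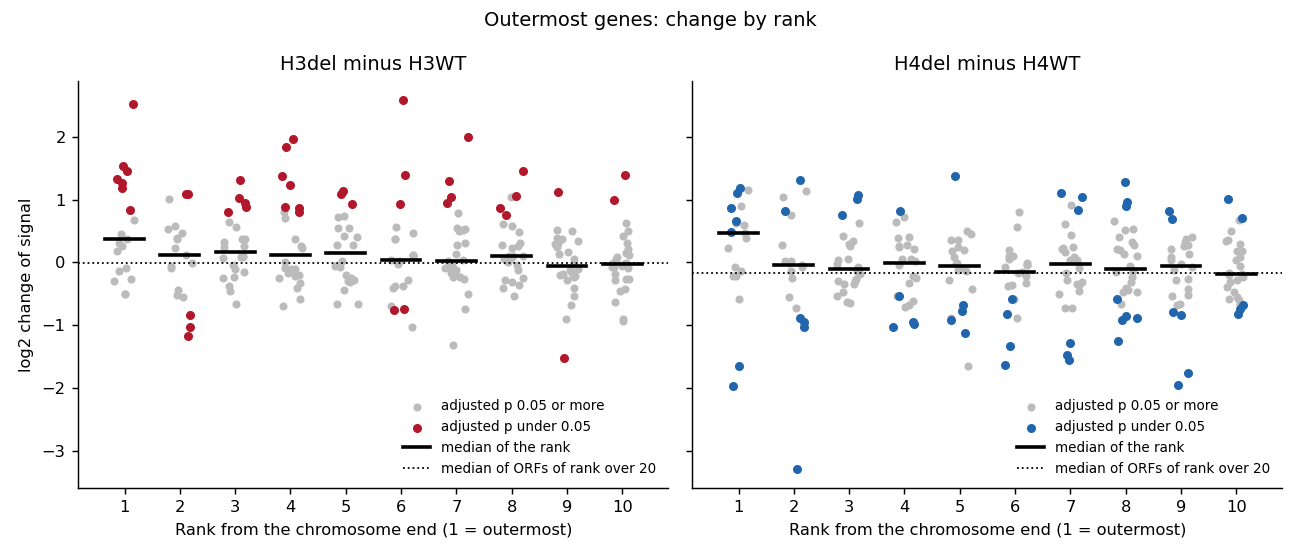
Log2 change of each tested outermost gene by rank from the chromosome end (1 is outermost), for H3del minus H3WT and H4del minus H4WT, with genes past an adjusted p of 0.05 coloured, a black bar at the median of each rank and a dotted line at the median beyond rank 20. In H3del the medians run from 0.37 at rank 1 to -0.03 at rank 10, and in H4del rank 1 has the highest median, 0.47.

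Rank 1 had the highest median of the 10 ranks in both comparisons. Of its 19 tested genes 7 rose and none fell in H3del, with a median of 0.37, and 5 rose and 2 fell in H4del, with a median of 0.47. The 7 were YAR068W, YER188C-A, YIR043C, AAD10, YLL066W-B, YML131W and YNR077C, of which YAR068W, YER188C-A, YIR043C and YNR077C have probe sets that can hybridize to related sequences. The probe sets of YER188C-A disagreed, as the other ones gave -0.46 ± 0.36 and 0.59 ± 0.32 in H3del. The 5 that rose in H4del were MIX23, IMD2, YIR043C, YLL066W-B and YNR077C, and the 2 that fell were SEO1 and YJL218W. Rank 1 also held 6 of the 18 genes lower in H3WT than in H4WT. At rank 10 the medians were -0.03 in H3del and -0.18 in H4del, close to those of the inner ORFs.

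Calls were spread over the arms. In H3del 21 of 32 arms had at least 1 gene that rose, 12 had at least 2 and 5 had at least 3. The median of an arm was above 0 in 21 and lowest on MR, at -0.54. In H4del 17 arms had a gene that rose and 19 one that fell, with medians from -0.75 on GL to 0.89 on CR. Of these medians 11 were above 0 and 21 above that of ORFs beyond rank 20, -0.16. The same counts were not made for stretches further in, so they show nothing particular to the arm ends. Arm NR carried 3 of the larger increases in H3del, at YNR077C (1.26), YNR071C (1.96) and YNR065C (1.39), the last of which resembles the sorting receptor Vps10. Arm LL had YLL066W-B (1.33), GTT2 (1.13), a glutathione transferase, and YLL056C (1.05). Arm KR had YKR104W (1.09), FLO10 and PCK1. On arm BR the neighbours MAL33, PHO89 and PCA1, at ranks 3, 4 and 5, rose in H3del by 0.80, 0.89 and 0.94, and on arm EL the neighbours HPA3, SIT1 and AVT2, at ranks 6, 7 and 8, by 0.93, 1.04 and 0.87. All 3 calls on EL were lost without some array.

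Of the arms with at least 3 genes that fell in H4del, IR had the 4 neighbours given above. On arm BR the neighbours SUL1, VBA2 and CTP1, at ranks 6 to 8, had log2 changes of -1.32, -1.28 and -0.89. The others were not unbroken runs. Arm DL had LRG1, AIM6 and PHO13, at ranks 5, 8 and 9 (-0.78, -0.86 and -0.84), arm NL had RPD3, LEM3 and VNX1, at ranks 2, 8 and 10 (-0.88, -0.58 and -0.82), and arm PL had ATP15, MDL2, ACM1 and DIM1, at ranks 4, 5, 8 and 9 (-0.54, -0.92, -1.25 and -0.80). On BR, then, MAL33 rose in both deletions while the 3 genes next inward of PCA1 fell in H4del. KR was the arm with 3 genes that rose in H4del, YKR104W (1.31), PCK1 (0.69) and ESL2 (0.70). In the wild types the genes lower in H3WT included 3 on arm AL (SEO1, YAL065C and GDH3) and 4 on arm LL (YLL066W-B, GTT2, JLP1 and YLL056C).

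Of 170 pairs of neighbouring tested genes 6 (3.53%) had both genes higher in H3del and 9 (5.29%) both lower in H4del. Beyond rank 10 these were 13 (0.296%) and 82 (1.86%) of 4399 pairs. Single genes were also called more often among the outermost. Of these 16.03% rose in H3del and 13.9% fell in H4del, beside 3.6% and 11.1% beyond rank 10. How much of the pair counts follows from these shares was not tested. By direction of transcription, 19 of 120 genes read toward the telomere and 19 of 117 read away from it rose in H3del, and 11 of each rose in H4del. In H4del 12 of those read toward the telomere and 21 of those read away fell, and between the wild types 12 and 6 were lower in H3WT. These differences were not tested.

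**Figure D5:**
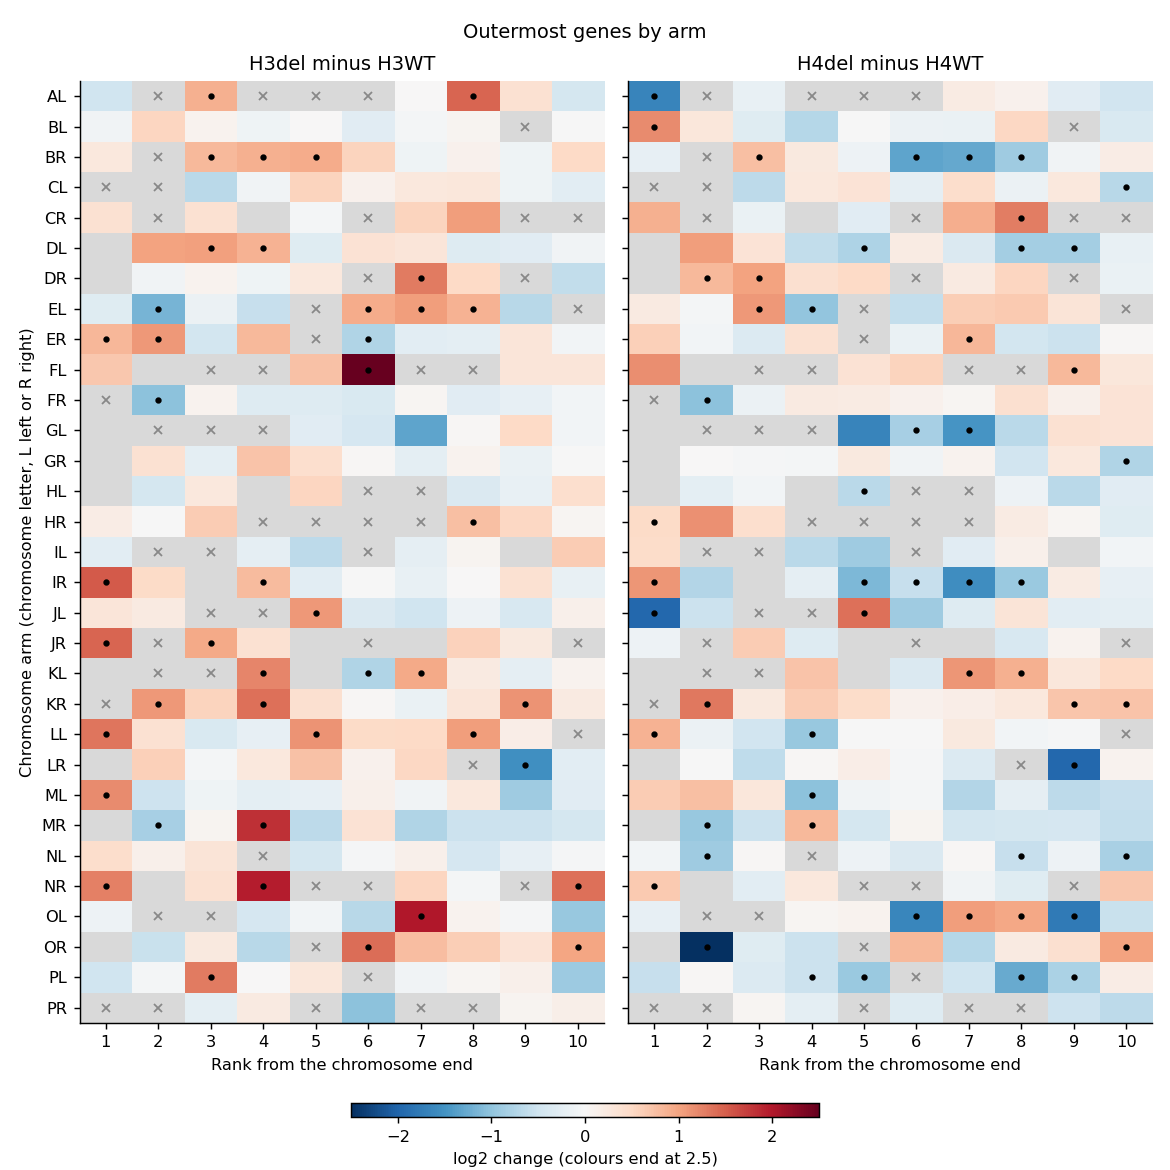
Log2 change of the outermost genes on 31 arms (rows) by rank from the chromosome end (columns), for H3del minus H3WT on the left and H4del minus H4WT on the right, with red for higher and blue for lower. A black dot marks an adjusted p under 0.05, a cross a gene at or under the brightness filter and plain grey a gene of a left-out family. The run of blue on arm IR from rank 5 to 8 and the run of red on arm BR from rank 3 to 5 are visible.

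Genes for silencing factors were examined beside these results. Of 27 listed genes for Sir, telomere and related chromatin factors 26 were tested. In H3del SAS4 rose and none fell, and in H4del SAS4 rose and NPT1, ORC1 and SAS5 fell, with medians of 0.08 and -0.28. At an unadjusted limma p under 0.05, 4 were higher and 4 lower in H3del, and 1 was higher and 3 lower in H4del. At the adjusted p, 4.19% of all tested ORFs rose and 2.63% fell in H3del, and 3.89% rose and 11.2% fell in H4del. SAS4, a subunit of the SAS histone acetyltransferase, changed by 1.22 ± 0.18 and 0.98 ± 0.21. NPT1, of NAD salvage, fell by 0.74, ORC1, of the origin recognition complex, by 1.15 and SAS5 by 0.60 on the log2 scale. The Sir protein genes did not pass in either: SIR2 had 0.46 ± 0.20 and -0.05 ± 0.23, SIR3 0.53 ± 0.21 and 0.09 ± 0.25, and SIR4 0.08 ± 0.22 and -0.42 ± 0.25. Of 12 genes for Hda1, Tup1 and related repressors 10 were tested. Of these RPD3, itself an outermost gene, fell in H4del and none passed in H3del. At an unadjusted limma p under 0.05, 1 was lower in H3del, and 2 were higher and 1 lower in H4del. TUP1 had 0.77 ± 0.27 in H4del and did not pass (limma adjusted p = 0.0595). Between the wild types it was higher in H3WT, by 0.98 ± 0.25 (limma adjusted p = 0.0403). RPD3, a histone deacetylase, gave 911, 961 and 869.7 in H4del and 1925, 1720.5 and 1472 in H4WT (-0.88 ± 0.22), without overlap, and its adjusted p was 0.0545 without H4WT replicate 1. SIR1, at rank 5 of arm KR, had 0.41 ± 0.28 in H3del and 0.45 ± 0.32 in H4del and did not pass.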

How the data were processed

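Expression was measured on 14 Affymetrix YG_S98 arrays, 1 per RNA sample. The deposited values are linear intensity per probe set, and the submitters' processing notes name MAS5 as their source. Its version and settings are not given in the sources used here. Every array had a 2% trimmed mean of 1501, so arrays share a mean and a change in total RNA per cell cannot be seen. The experiment records deposited with the arrays gave the day of hybridization, used as a batch, and their other fields were not used.

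Of 9335 probe sets 60 controls were removed. Genes were taken from the platform annotation, in which 6504 probe sets named 1 gene, 328 several and 2443 none, with symbols and order from RefSeq. For a gene with several probe sets the brightest was used. Log2(signal + 16.9) was fitted with limma 3.58.1 in R 4.3.3 (lmFit, eBayes with trend) over all 4 groups, with 10 residual degrees of freedom, and the Benjamini-Hochberg adjustment ran over 6492 probe sets. The fit was also run on simulated arrays drawn independently of each other. That run does not cover likeness between arrays of the same number or day. Errors are standard errors unless named otherwise.

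The genes and role lists were chosen with earlier results of these data known, and support nothing by their choice. Genes are named by size of change, by arm, by list and by call in both deletions. The split by brightness, the counts of neighbouring pairs, of transcription direction and of groups without overlap, and the 9 genes plotted by array were chosen after the values were seen. Alternatives changed the offset, filter, normalization, batch or replicate block, variance trend, probe set choice and ranking, and left out single arrays. Deviations from the group means of same-numbered arrays in different groups correlated at 0.157 to 0.638 in all 19 pairs, of which 10 also share a day. Pairs of other numbers had 0.319 to 0.541 in the 3 that share a day and -0.466 to 0.305 in the 51 that do not. Both number and day thus went with likeness between arrays. Depth does not apply to arrays, whose number limits the precision. One arm's own values are not reported here. No sequences are printed.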

Additional observations from a re-analysis of the deposited data

Results flagged for a closer look

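In 82 of the named outermost genes the 4 arrays of H3del and of H3WT were searched for an array standing apart from the other 3, in 164 groups in all. There were 14 such arrays, and chance alone gives about 1 in 20 groups. H3del replicate 3 was the array in 8 of them. It was lowest for ACM1 at a signal of 480.8, ESL2 at 951.7, GDH3 at 1359, LEM3 at 1085, YJL218W at 898 and YLL056C at 658, and highest for PCK1 at 756 and YCR099C at 421. H3del replicate 4 was highest for AIM6 at 3198, and H3del replicate 2 for YCL074W at 33.3. Among the wild-type arrays, H3WT replicate 1 was highest for YAL065C at 118, H3WT replicate 2 lowest for YAR068W at 24.9, and H3WT replicate 3 lowest for YJL218W at 787 and for YNR071C at 74.3.

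The change in H3del minus the change in H4del passed limma's test for 22 of the outermost genes, 3 of them in the fit without the filter. Values above 0 were 0.96 for HPF1, 1.07 for PCA1, 1.08 for FIT1, 1.11 for YLL056C, 1.15 for GTT2, 1.16 for VBA2 and 1.23 for DFP4 on the log2 scale. Larger ones were 1.35 for GDH3, 1.37 for IRC24, 1.48 for YDL241W, 1.58 for AAD10, 1.66 for PBI1, 1.69 for YNR071C, 1.88 for SUL1, 2.04 for DAK2, 2.14 for YAR068W and 2.26 for YJL218W. FMP10 had -1.10 and URA1 -0.67. Without the filter HMRA1 had -3.58, YCL074W -2.55 and STL1 1.14.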

How the results depend on the processing

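In H3del the number of outermost genes that rose stayed within 1.5 times of 38 under 11 of 13 alternatives beside the leaving out of arrays. It ran from 27, of only 140 tested among the 10 outermost of all annotated ORFs, to 50. It was 14 with the filter at the 50th percentile, where fewer and brighter genes were tested, with 3 that fell and a median of -0.045 at rank 1 to 5, and 61 with the hybridization day as a block, with 25 that fell (25.7% and 10.5% of the genes, beside 10.1% and 10.2% of all tested ORFs). With the filter at the 50th percentile 9 rose in H4del, 10 were above 0 in the difference and 9 were lower in H3WT than in H4WT. The day block, which drops H4WT replicate 2, gave 52 that fell in H4del (21.9%, beside 19.96%) and 42 above and 10 below 0 in the difference (17.7% and 4.22%, beside 11.8% and 4.49%). The replicate block gave 15 that fell in H3del, 38 that rose and 50 that fell in H4del, 40 above and 10 below 0 in the difference and 15 higher in H3WT, and it changed no other call of the 104 tested. Median centring moved the rank 1 to 5 median in H4del to 0.14, its rank 6 to 10 median from -0.12 to 0.040, the rank 6 to 10 median of the difference from 0.17 to 0.011 and the number below 0 in the difference to 5, which was 6 with quantile normalization, 4 without the filter and 1 without the variance trend. Taking the 10 outermost of all annotated ORFs left 140 tested genes. Of these 18 fell in H4del, beside 33 of 237 in the main fit, and 1 was below 0 in the difference. The lower counts there are counts of fewer genes. The rank 1 to 5 median was 0.29 in H4del and -0.24 between the wild types. The cause of the other shifts was not tested.

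With single arrays left out, the count that rose in H3del ran from 30 to 39 and the count that fell from 4 to 8. In H4del these ran from 10 to 23 and 18 to 37, in the difference from 6 to 27 above and 0 to 3 below, and between the wild types from 2 to 5 higher and 10 to 19 lower. The rank 1 to 5 medians ran from 0.15 to 0.26 in H3del, -0.05 to 0.04 in H4del, 0.28 to 0.38 in the difference and -0.17 to -0.03 between the wild types. The rank 6 to 10 medians ran from 0.02 to 0.06, -0.11 to -0.07, 0.14 to 0.30 and -0.00 to 0.10. No named gene's call turned direction under any alternative, but several medians changed sign, beside those given above. In H3del the rank 6 to 10 median, 0.038, was -0.028 with the filter at the 50th percentile and -0.034 within day 4. In H4del the rank 1 to 5 median, -0.019, was 0.051 without the filter, 0.0084 with quantile normalization and 0.040 without H4WT replicate 3. Between the wild types the rank 1 to 5 median, -0.068, was 0.034 with the filter at the 50th percentile, and the rank 6 to 10 median, 0.056, was -0.021 with median centring and -0.0027 without H3WT replicate 4. Of the single calls, 13 of 104 were lost with quantile normalization, 9 of 104 with median centring, 7 of 114 with the day block and 201 of 785 with arrays left out. Brightness limits the rest: 65 genes lay at or under the filter.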
